A study of Homo sapiens with 24 samples.

Results

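The 4 human HOX clusters hold 39 protein-coding genes, and 30 of them had values in the authors' gene table. They were chosen by name and protein-coding type alone: 10 HOXA genes, 10 HOXB genes, 4 HOXC genes (HOXC4, HOXC5, HOXC6 and HOXC13) and 6 HOXD genes (HOXD1, HOXD3, HOXD4, HOXD8, HOXD9 and HOXD13), among 28297 Ensembl genes in all. The other 9 (HOXA6, HOXC8 to HOXC12 and HOXD10 to HOXD12) were not analysed here. The table holds no feature with fewer than 10 reads summed over all libraries. Values are normalised read counts as deposited, and 1 read was worth 0.716 to 1.505 units, depending on the library.

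The cells were H9, a human embryonic stem cell line, kept in E8 medium, which maintains pluripotent cells. The engineered cells carried optoWnt, a fusion of the plant photoreceptor Cry2, which clusters under blue light, with the intracellular part of the Wnt co-receptor LRP6, joined to mCherry, and they also had reads of a puromycin resistance gene. Wild-type cells had reads of eGFP and of a neomycin resistance gene, so the 2 kinds of cell differed in more than the receptor. The 8 groups had 3 libraries each: engineered cells in monoculture under light (Cry2_light) or in the dark (Cry2_dark), wild-type cells in monoculture under light (wt_light) or in the dark (wt_dark), engineered cells sorted from 1:1 co-cultures under light (mCherry_light) or in the dark (mCherry_dark), and wild-type cells sorted from the same co-cultures under light (GFP_light) or in the dark (GFP_dark). Illumination lasted 48 h at 0.8 µW/mm², and a replicate pooled 2 to 3 wells. The sources used here do not say whether the cells came from 1 clone, and p-values measure the spread between these libraries. The co-culture libraries are called a, b and c, which are names only.

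HOX genes encode homeodomain transcription factors that give cells their place along the head-to-tail axis. Within a cluster, genes of low paralogue number lie at the 3′ end and are switched on first and in more anterior tissue, and genes of high number follow later and further back, an order known as colinearity. In the gastrulating embryo the first HOX transcripts appear in and next to the primitive streak, where Wnt ligands are made, and CDX factors, PBX and MEIS cofactors and Polycomb and Trithorax proteins are known to act on the clusters.

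Depth, as reads assigned to genes, was 45763662 to 54707558 in the monoculture light libraries and 28237578 to 34291124 in the monoculture dark libraries, so depth moved with light in monoculture. In co-culture it was 31807414 to 55593196 under light and 44162262 to 56639833 in the dark. The shallow libraries there were mCherry_light c and GFP_light c. The authors' sample table lists a GC content of 33.73% for wt_dark 1, far below the other monoculture libraries, and an RNA integrity number of 7.6 for Cry2_dark 3. In engineered cells, markers were those of stem cells in the dark, and streak markers rose under light. All 8 pluripotency genes fell and all 7 streak and nascent mesoderm genes rose in Cry2_light over Cry2_dark. Of all genes, 30.4% fell and 28.1% rose there. POU5F1 still had 21572 to 23319 in Cry2_light, against 87343 to 97461 in Cry2_dark. In wt_light over wt_dark no gene of either list passed, where 0.0720% of all genes did. In bulk RNA, fewer cells of a type and less RNA per cell cannot be told apart.

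Promoter windows of 300 bases (250 before and 50 after the start) were found in RefSeq (GRCh38.p14) for 16 of the 30 genes, in 22 distinct windows, since HOXA3 had 7 starts, HOXA10 had 2 and HOXC4 and HOXC5 shared 1 window. The 3 windows with the most matches to the motif letters searched are shown, with that of HOXD1, which had the highest level per kb among the HOXD genes and no match. Capitals mark matches on either strand to CTTTGA (TCF/LEF core), TTTATG (CDX core), TGACAG (MEIS core) or TGATNNA (PBX-HOX letters).
HOXA2 (chr7:27102634-27102933, minus strand): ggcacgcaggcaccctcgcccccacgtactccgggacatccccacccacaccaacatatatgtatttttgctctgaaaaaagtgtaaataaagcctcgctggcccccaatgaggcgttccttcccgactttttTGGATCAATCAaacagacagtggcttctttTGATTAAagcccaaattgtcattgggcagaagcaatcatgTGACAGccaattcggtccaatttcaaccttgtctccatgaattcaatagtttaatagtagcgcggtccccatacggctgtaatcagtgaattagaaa
HOXA3 (chr7:27152534-27152833, minus strand): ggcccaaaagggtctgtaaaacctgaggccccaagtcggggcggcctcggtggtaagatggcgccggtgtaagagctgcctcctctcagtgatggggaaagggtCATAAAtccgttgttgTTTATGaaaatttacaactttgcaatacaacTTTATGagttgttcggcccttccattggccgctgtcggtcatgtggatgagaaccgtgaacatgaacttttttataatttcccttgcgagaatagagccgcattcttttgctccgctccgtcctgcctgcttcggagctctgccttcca
HOXB1 (chr17:48530962-48531261, minus strand): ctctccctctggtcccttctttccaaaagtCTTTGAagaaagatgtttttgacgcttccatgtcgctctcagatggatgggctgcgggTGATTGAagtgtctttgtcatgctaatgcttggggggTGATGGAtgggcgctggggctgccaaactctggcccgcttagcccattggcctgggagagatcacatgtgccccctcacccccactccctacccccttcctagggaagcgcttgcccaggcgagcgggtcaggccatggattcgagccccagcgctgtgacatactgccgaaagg
HOXD1 (chr2:176188418-176188717, plus strand): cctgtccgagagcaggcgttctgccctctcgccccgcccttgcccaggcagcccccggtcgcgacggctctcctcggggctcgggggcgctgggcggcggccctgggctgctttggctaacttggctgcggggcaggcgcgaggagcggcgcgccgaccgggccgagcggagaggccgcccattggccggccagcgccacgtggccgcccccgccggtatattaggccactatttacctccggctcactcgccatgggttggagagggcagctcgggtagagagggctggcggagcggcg

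The HOXA2 window held 3 PBX-HOX matches, 2 of which overlap in 1 capital run, and 1 MEIS match. The HOXA3 window held 3 CDX matches, and the HOXB1 window held 1 TCF/LEF and 2 PBX-HOX matches. Over the 22 windows, 3 (13.6%) held the TCF/LEF letters, against 12.9% of all 34943 promoter windows, and 3 (13.6%) held the CDX letters, against 10.6%. The MEIS letters stood in 4 windows (18.2%), against 15.8%, and the PBX-HOX letters in 8 (36.4%), against 26.1%. A match is a description of the letters, not a site. Median GC content was 57.3% in the HOX windows and 58.7% in all windows, and the ratio of observed to expected CpG was 0.767 in the HOX windows and 0.577 in all windows.

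HOX genes of all 4 clusters were higher in engineered monocultures under light, with the 3′ genes of the HOXA and HOXB clusters at the highest values. Summed over the 30 genes, the value was 36069 ± 558 in Cry2_light and 12.2 ± 7.87 in Cry2_dark (SD, n = 3 each), which is 26 reads over the 3 dark libraries. HOXB genes made up 69.2% of the summed value in Cry2_light, HOXA genes 27.5%, HOXD genes 1.72% and HOXC genes 1.61%. In 29 of the 30 genes every Cry2_light library was above every Cry2_dark library, as in 25.0% of all genes without a filter; HOXC13 was the exception. Genes were tested if 3 or more libraries reached a value of 10, which a gene silent in the dark can reach only through its light libraries, so the count of tested members is not evidence by itself. All 26 HOX genes tested rose in Cry2_light over Cry2_dark, where 28.1% of all 19444 genes tested rose (limma, adjusted p under 0.05).

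**Figure D1:**
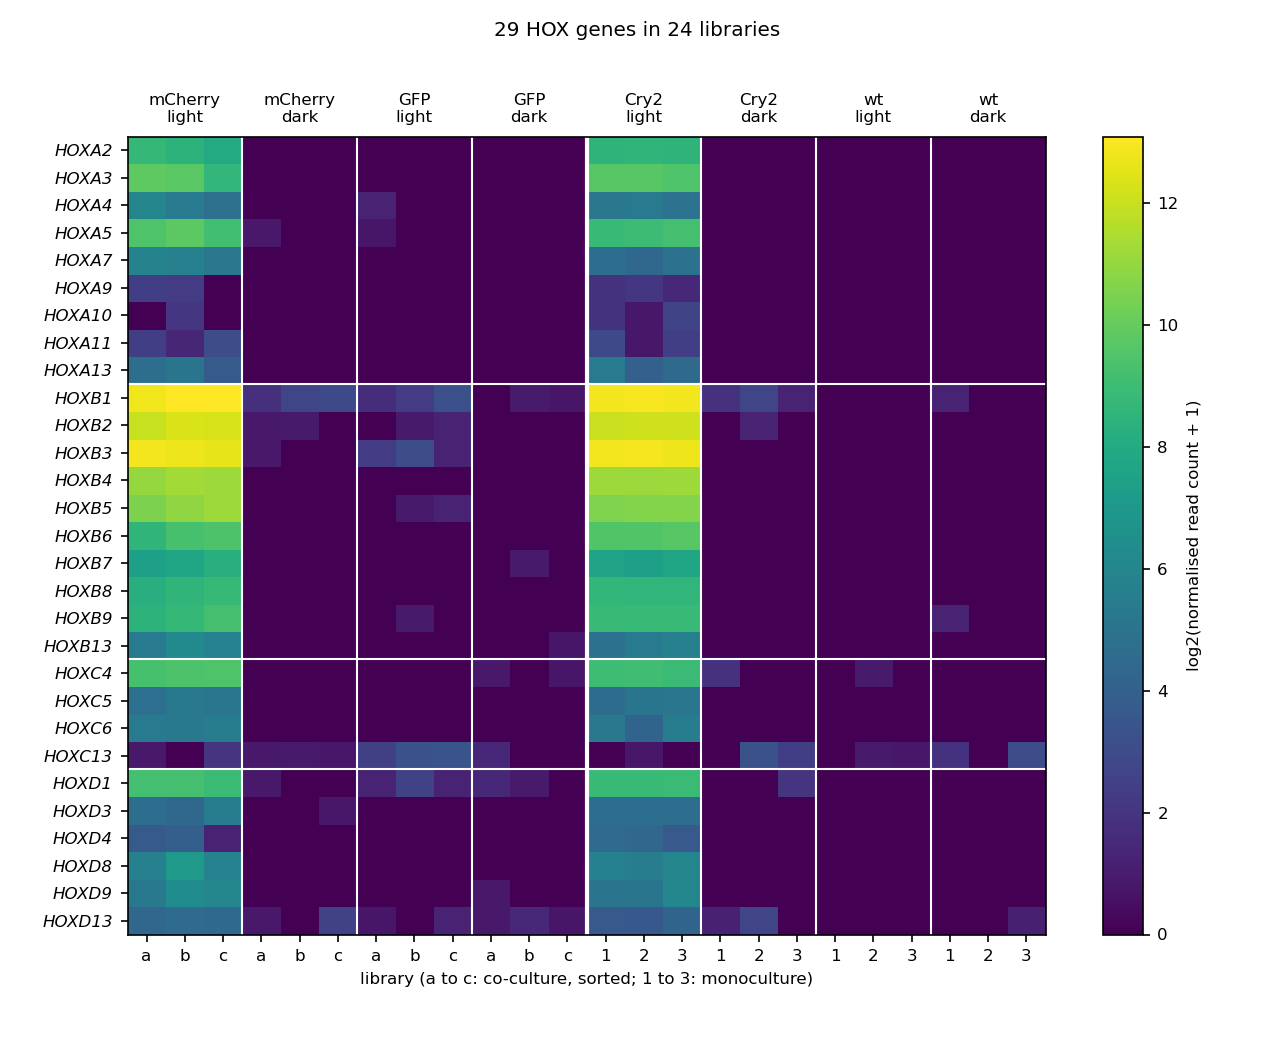
Values of 29 HOX genes in the 24 libraries as log2(normalised read count + 1), with genes in rows by cluster and paralogue position and libraries in columns by group. The 3 mCherry_light and the 3 Cry2_light libraries are bright for most genes, and the other 18 libraries are near 0; HOXA9, HOXA10, HOXA11 and HOXC13 stay dark throughout.

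Paralogue groups 1 to 3 pattern the hindbrain and the branchial arches, and the highest values were among their members.
HOXB1 (ENSG00000120094, chr17:48528526-48531001), which specifies a hindbrain segment, had 7467, 7866 and 7332 in Cry2_light, against 2.61, 5.66 and 1.49 in Cry2_dark. The groups did not overlap. It rose 2323-fold by the group means, by 10.9 ± 0.44 on the log2(value + 1) scale (SE, limma, adjusted p = 1.12e-11). With 7 reads over the 3 Cry2_dark libraries it came second there to HOXC13, which had 9. HOXB2, active in hindbrain segments and the facial nerve, had 4214, 4445 and 4563 in Cry2_light, against 0, 1.41 and 0 in Cry2_dark. HOXB3 had 7455, 7574 and 6846 in Cry2_light and 0 in each Cry2_dark library, at least 5214-fold higher on a floor of 3 reads over the group.
HOXA2, the selector gene of the hyoid arch in the mouse, had 361, 376 and 366 in Cry2_light, and HOXA3, needed for the thymus and parathyroid in the mouse, had 815, 820.0 and 705; both were at 0 in each Cry2_dark library. HOXD1 had 452, 472 and 481 in Cry2_light, against 0, 0 and 2.98 in Cry2_dark, and rose by 8.21 ± 0.55 (adjusted p = 3.91e-09, limma). Of HOXD1's exon length, 58.1% lies opposite exons of HAGLR and another antisense gene, so part of its reads could belong to them. HOXD3, with 25.3, 25.1 and 25.7 in Cry2_light and none in Cry2_dark, shares 62.2% of its exon length with another gene on the same strand and is uncertain for that reason.

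Groups 4 to 8 mark the neck and trunk, and in the HOXB cluster they were also strongly present. HOXB4, known for expanding blood stem cells when overexpressed, had 2286, 2249 and 2268 in Cry2_light, and HOXB5 had 1506, 1613 and 1640, against 0 in each Cry2_dark library for both. They were at least 1621-fold and at least 1134-fold higher. HOXB6 averaged 768 ± 57.4, HOXB8 391 ± 7.16 and HOXB7 190.5 ± 24.5 in Cry2_light (SD, n = 3), with no read in Cry2_dark.
HOXA5, which acts in lung and neck skeleton in the mouse, had 465, 498 and 602 in Cry2_light, against 0 in each Cry2_dark library. HOXA4 and HOXA7 averaged only 35.3 ± 5.17 and 24.7 ± 4.95, although they flank HOXA5. HOXA7 shares 62.5% of its exon length with the antisense HOXA-AS3, and HOXA4 shares 31.0% with a gene on its own strand, so both values are uncertain.
HOXC4 had 527, 547 and 480.0 in Cry2_light, against 2.61, 0 and 0 in Cry2_dark, a ratio of 556 between reads summed over each group (95% counting interval 154 to 4597, from 2 dark reads). HOXC5 and HOXC6 averaged 30.2 ± 5.87 and 33.1 ± 13.97 in Cry2_light and had no read in Cry2_dark; HOXC5 shares 59.9% of its exon length with other transcripts on the same strand. HOXD4 and HOXD8 averaged 17.6 ± 5.61 and 53.9 ± 7.97 in Cry2_light, again with none in Cry2_dark, and HOXD4 shares 80.5% of its exon length.

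Groups 9 to 13 pattern the lumbar and tail regions, limbs and genitals. HOXB9 had 465, 455 and 457 in Cry2_light, against 0 in each Cry2_dark library, at least 328-fold higher. HOXD9 averaged 42.4 ± 17.9 in Cry2_light and was without reads in Cry2_dark. HOXA9, a regulator of blood progenitors, HOXA10 and HOXA11 stayed at 0.810 to 6.33 in Cry2_light and at 0 in Cry2_dark, and did not reach the level needed for the test.
The group 13 genes did not all follow. HOXA13, which shapes the hand, foot and genital tract, had 39.8, 15.4 and 22.2 in Cry2_light, against 0 in each Cry2_dark library. HOXB13, known from the prostate and hindgut, had 29.9, 38.9 and 51.5, against 0 in each Cry2_dark library. HOXD13, which shapes the digits, had 11.8, 11.3 and 17.7 in Cry2_light, against 1.31, 5.66 and 0 in Cry2_dark, the smallest change of the 26 with 2.53 ± 0.69 (adjusted p = 0.00554, limma).
HOXC13, known from hair and nail, had 0, 0.810 and 0 in Cry2_light, against 0, 8.48 and 4.46 in Cry2_dark, and was too low for the test. In all, 3 of the 4 genes at position 13 were above HOXA9, HOXA10 and HOXA11 per kb of exon in Cry2_light.

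Per kb of exon, the level in Cry2_light was 3051 ± 112 for HOXB1, the highest HOXB gene, and went down to 0.111 ± 0.193 for HOXC13 (SD, n = 3). HOXB2 (1887), HOXB3 (978), HOXB5 (777) and HOXB4 (604) were the next highest HOXB genes. A middle band from HOXA5 (306) to HOXB7 (125) held HOXB6, HOXD1, HOXB8, HOXC4, HOXA3, HOXB9 and HOXA2. The next gene, HOXD9, was at 22.7 per kb, and the other 14 were below it.
Level per kb fell with paralogue position in both large clusters, with a Spearman rho of -0.806 over the 10 HOXA genes and -0.952 over the 10 HOXB genes in Cry2_light. In mCherry_light the values were -0.806 and -0.927. These correlations run across genes within a cluster, which are not replicates. In HOXB the series went up again at HOXB5 (777, against 604 for HOXB4) and at HOXB8 (191, against 125 for HOXB7). The step at HOXB5 depended on the length used. Per kb of coding exon, HOXB5 (1966) was below HOXB4 (3011) in Cry2_light. On that scale the series went up at HOXB3 (4419, against 4127 for HOXB2), HOXB8 (466, against 293 for HOXB7) and HOXB9 (612). HOXA broke the order more strongly, with steps up at HOXA3 (181, against 150 for HOXA2) and HOXA5 (306, against 20.2 for HOXA4). It then dropped to 10.2 at HOXA7 and 0.851 at HOXA9, and HOXA13 (5.07) was above HOXA11 (1.67). In HOXD the level went up from HOXD3 (7.16) to HOXD9 (22.7).

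**Figure D2:**
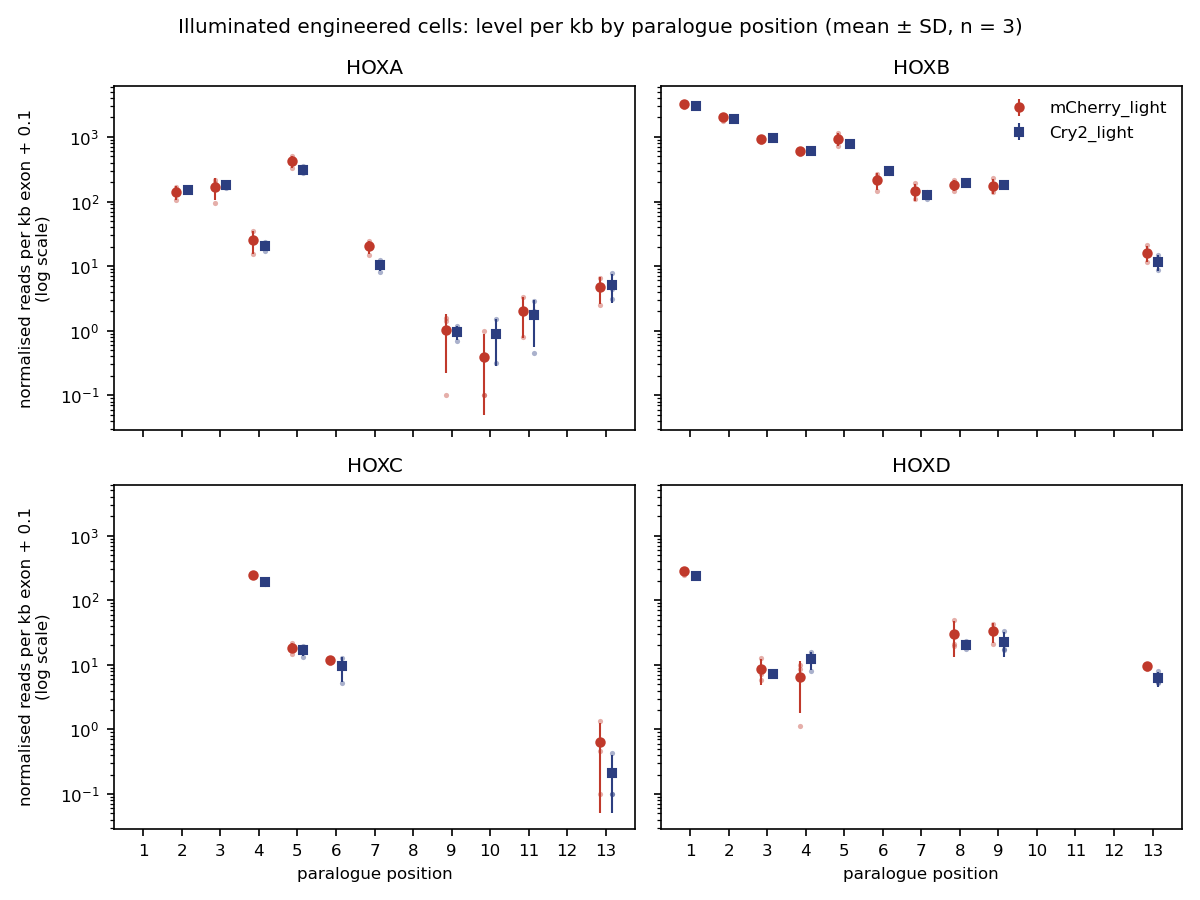
Normalised reads per kb of exon, plus 0.1, on a log axis against paralogue position in the 4 clusters, for mCherry_light and Cry2_light (small points are libraries, large symbols means, bars SD, cut off at the axis floor). HOXB falls from HOXB1 to HOXB9 with steps up at HOXB5 and HOXB8, HOXA is lowest at HOXA9 to HOXA11, and HOXA13, HOXB13 and HOXD13 are above those 3 genes.

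Light without the receptor gave no HOX call. The summed value was 0.901 ± 0.956 in wt_light and 4.73 ± 4.40 in wt_dark (SD, n = 3 each), from 3 and 11 reads, of which 8 reads in wt_dark were HOXC13. None of the 26 genes tested passed in wt_light over wt_dark, where 0.0720% of all genes passed in either direction. None had an unadjusted p under 0.05 in limma, and edgeR and DESeq2 called none. Most of the 26 had no read in either group and reached the filter through Cry2_light, so these tests could not have called them. Against wt_light, all 26 were higher in Cry2_light, where 29.6% of all genes were higher.
In the dark, Cry2_dark over wt_dark gave no HOX call, where 3.60% of all genes passed in either direction, and edgeR and DESeq2 gave none either. Here too most of the 26 had no read in either group and could not have been called. The gene with an unadjusted p under 0.05 in limma was HOXB1, with 2.61, 5.66 and 1.49 in Cry2_dark, against 1.38, 0 and 0 in wt_dark. Its log2 change was 1.55 ± 0.44 (adjusted p = 0.0727, limma). Without wt_dark 1, the library of low GC content, 1 HOX gene passed. The light effect itself differed between Cry2 and wt cells for all 26 (limma, 22.8% of all genes differed upwards), while edgeR on whole reads called 2 (HOXB1 and HOXB9) and DESeq2 22. Of the 26 genes most had reads in Cry2_light alone among the 4 monoculture groups.

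HOX genes also rose in engineered cells sorted from illuminated co-cultures with wild-type cells. The summed value was 36403 ± 1823 in mCherry_light and 10.5 ± 2.54 in mCherry_dark (SD, n = 3 each). All 25 genes tested rose, where 27.2% of all 19436 genes rose, and in 27 of the 30 every mCherry_light library was above every mCherry_dark library, as in 21.9% of all genes without a filter. The 5 under the filter were HOXA9, HOXA10, HOXA11, HOXC13 and HOXD4.
HOXB1 had 7232, 8711 and 8524 in mCherry_light, against 2.57, 5.58 and 6.33 in mCherry_dark, and rose 1690-fold, by 10.51 ± 0.42 on the log2 scale (adjusted p = 1.71e-11, limma). The light and dark libraries of HOXB1 were far apart, and with 17 reads it led the members in mCherry_dark, against 0, 0.898 and 0.716 in GFP_dark. In mCherry_dark over GFP_dark no HOX gene passed, where 0.797% of all genes passed in either direction, and edgeR and DESeq2 called none. The 30 genes had 37 and 17 reads in these groups, so a call was hardly possible for most. HOXB1 had the 1 unadjusted p under 0.05 in limma there, with a log2 change of 1.91 ± 0.42 (adjusted p = 0.0527). Without mCherry_dark a, 1 HOX gene passed.
HOXB3 had 7381, 6939 and 6249 in mCherry_light, against 0.856, 0 and 0 in mCherry_dark, and HOXB4 had 2056, 2443 and 2286, against 0 in each mCherry_dark library. HOXC4 averaged 677 ± 50.5 and HOXD1 554 ± 64.1 in mCherry_light. HOXD13 rose by 3.32 ± 0.65 (adjusted p = 0.000468, limma), to 21.0 ± 1.68 in mCherry_light, against 1.87 on average in mCherry_dark. At position 13, HOXA13 and HOXB13 averaged 23.5 ± 10.7 and 55.5 ± 15.9 in mCherry_light, and HOXC13 had 0.877, 0 and 3.01, against 0.856, 0.930 and 0.791 in mCherry_dark.

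Some levels stood apart between the cultures. HOXA7 had 57.9, 51.8 and 36.1 in mCherry_light, against 25.3, 19.4 and 29.3 in Cry2_light. HOXC4 (626 to 727 in mCherry_light, against 480.0 to 547 in Cry2_light) and HOXD13 (19.3 to 22.6, against 11.3 to 17.7 in Cry2_light) were also higher without overlap, and HOXB6 was lower (375 to 698 in mCherry_light, against 730.1 to 834 in Cry2_light). These genes were named after their values were seen, and their levels were not tested between cultures. The other HOX genes overlapped between mCherry_light and Cry2_light. The share of all genes without overlap between these groups was not computed, so the number of such HOX genes cannot be judged against it. The part of cell sorting in these differences was not tested. None of the 26 HOX genes passed a test of the difference in light effect between mCherry cells in co-culture and Cry2 cells in monoculture, where 0.0640% of all 20322 genes passed. None had an unadjusted p under 0.05 in limma, and edgeR and DESeq2 called none. For HOXB4 the difference was -0.01 (95% interval -1.03 to 1.02, log2). Over the 26 genes the intervals reached from -2.95 (HOXD4) to 2.74 (HOXD13), so differences of several fold in the weak genes could not be detected. HOXC4 had the largest positive estimate, 1.00 (-0.40 to 2.41).

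**Figure D3:**
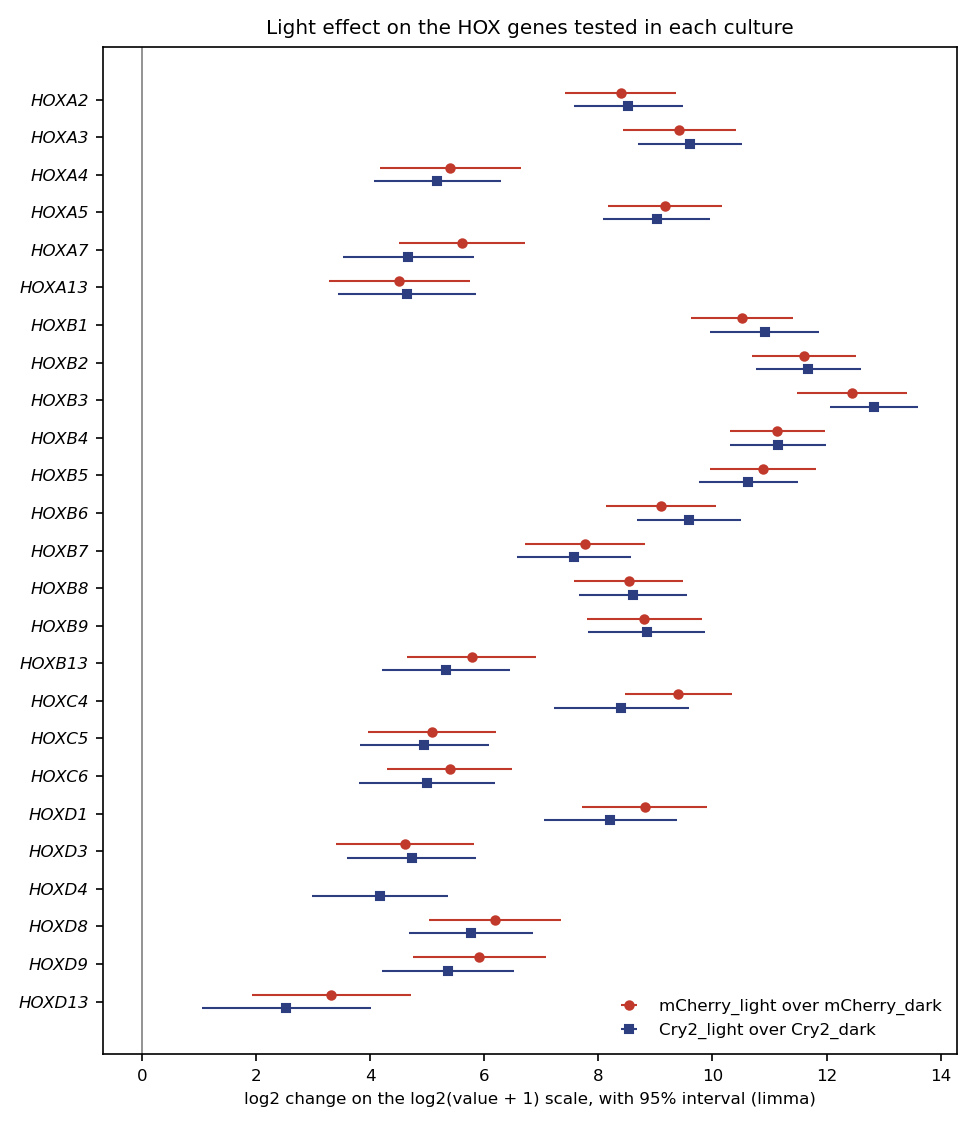
Log2 change under light with 95% interval (limma, log2(value + 1) scale) for mCherry_light over mCherry_dark (upper of each pair) and Cry2_light over Cry2_dark (lower). All estimates are above 0, from HOXD13 at 3.32 and 2.53 to HOXB3 at 12.44 and 12.83, and the 2 intervals overlap for each gene tested in both cultures.

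The spread among the 3 mCherry_light libraries was wider than in Cry2_light and ran partly by cluster. Library c, the shallow one with 31807414 reads, was low in HOXA: HOXA3 was at 0.465 of the mean of the other 2, HOXA4 at 0.524 and HOXA2 at 0.666. In the same library HOXB5 to HOXB9 were high, from 1.29 (HOXB8) to 1.56 (HOXB7) of that mean, while HOXB1, HOXB2 and HOXB4 were at 1.02 to 1.10 and HOXB3 at 0.873. Library a ran the other way, with HOXA4 at 1.73, HOXA3 at 1.46, HOXB6 at 0.570 and HOXB7 at 0.664. Library c is part of the mean that a was set against, so the 2 patterns are not independent. HOXA3 had 915, 844 and 409 in a, b and c. Over all genes, a differed more from b and c (chi-square per degree of freedom 62.4 and 71.1) than they did from each other (13.7).
Libraries a and c are single libraries of 3, so no test was made. The antisense gene HOTAIRM1, in the HOXA cluster, had 1014, 932 and 491 in mCherry_light a, b and c. Other antisense genes of that cluster were not lowest in c: HOXA-AS2 had 722, 827 and 781, and HOXA-AS3 had 317, 419 and 402. In the HOXB cluster, library c was at 0.796 of the mean of the other 2 for HOXB-AS1 and at 1.45 for HOXB-AS3. The caudal genes CDX1 and CDX2 had 6228, 9121 and 10020.2, and 5891, 8121 and 6697, in mCherry_light a, b and c. The part of depth in the HOX values was not tested. Without library c all 25 genes still rose.

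**Figure D4:**
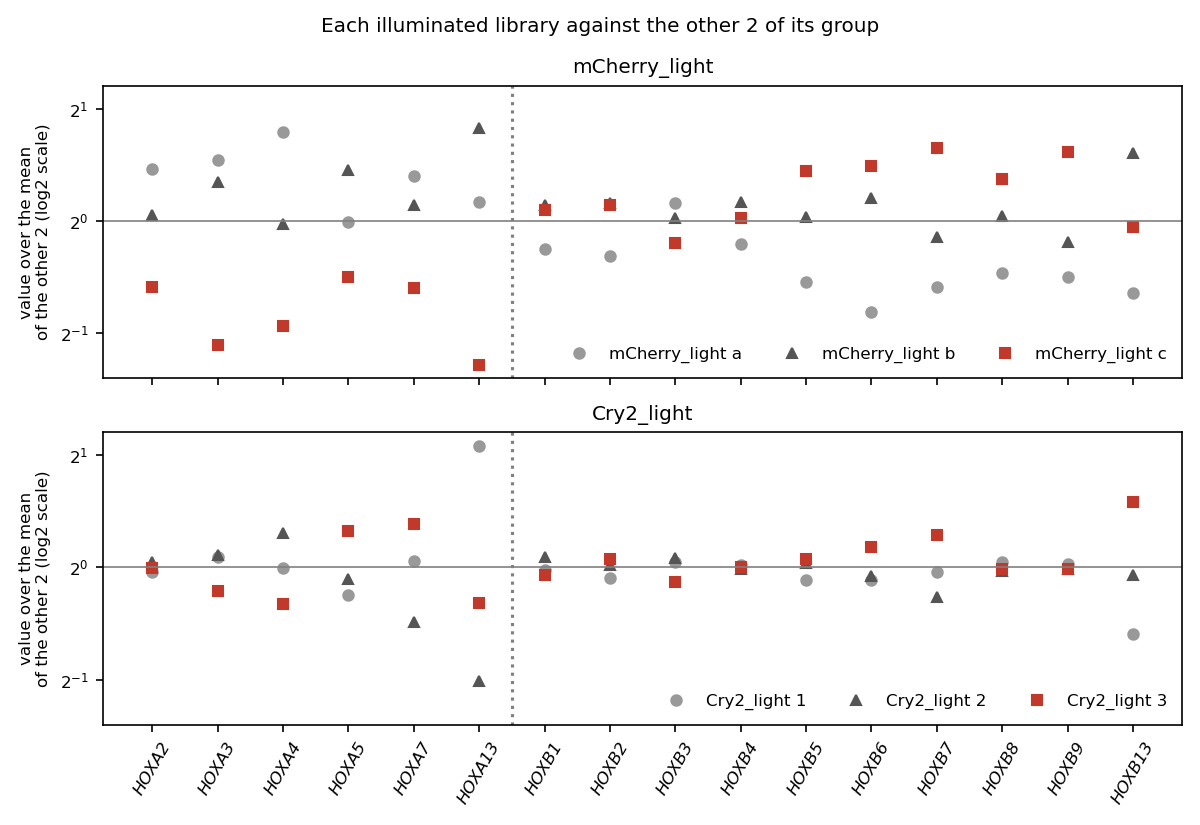
Each library's value over the mean of the other 2 libraries of its group, on a log2 axis, for 16 HOXA and HOXB genes with at least 10 in all 6 libraries; mCherry_light above, Cry2_light below. In mCherry_light, library c is below 1 for the HOXA genes and above 1 for HOXB5 to HOXB9, while the Cry2_light libraries stay closer to 1 apart from the weak genes HOXA13 and HOXB13.

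Wild-type cells sorted from illuminated co-cultures had few HOX reads. The summed value was 23.7 ± 7.66 in GFP_light and 4.75 ± 1.33 in GFP_dark (SD, n = 3 each), from 72 and 17 reads, and the GFP_light sum was 0.0651% of that in mCherry_light. Of the 25 genes tested 2 rose, where 2.39% of all genes rose. HOXB3 had 3.76, 7.54 and 1.35 in GFP_light, against 0 in each GFP_dark library (2.19 ± 0.45, adjusted p = 0.0109, limma). HOXB1 had 2.26, 3.77 and 8.08 in GFP_light, against 0, 0.898 and 0.716 in GFP_dark (1.81 ± 0.42, adjusted p = 0.0215, limma). In neither gene did the groups overlap, but the share of all genes without overlap in this contrast was not computed. HOXB3 alone passed edgeR and DESeq2, and no HOX gene passed with a pseudocount of 5, with only the 2 groups in the fit, or without GFP_light b. Without GFP_light c, GFP_dark a or GFP_dark c, 1 of the 2 passed, HOXB3.
The puromycin resistance gene, carried by the engineered cells, had 6 reads in GFP_light, which is 0.0511% of its level in mCherry_light, and 10 reads in GFP_dark. HOXB1 and HOXB3 stood at 0.0577% and 0.0615% of their mCherry_light levels. The part of engineered cells' RNA in the 2 calls was not tested. Not all traces were of that size: the antisense gene HAGLR, beside HOXD1, stood at 1.74% and the streak gene TBXT at 0.428%.
HOXC13 went the other way from the rest of the set. It had 4.51, 8.48 and 9.43 in GFP_light, against 1.77, 0 and 0 in GFP_dark, and at 7.47 on average was above the 1.30 of mCherry_light. It was under the filter; with no filter it rose by 2.54 (adjusted p = 0.0298, limma) on 22 reads. In monoculture it had 0, 0.952 and 0.799 in wt_light, against 2.75, 0 and 7.45 in wt_dark, a spread as wide as the difference in co-culture.
The light effect in GFP cells differed from that in wt cells for HOXB3 by 2.19 (adjusted p = 0.0355, limma), where 1.41% of all genes differed upwards. HOXB3 lost that call in edgeR and DESeq2 (adjusted p = 1 and 0.121) and when any 1 library other than GFP_light c was left out (adjusted p = 0.0523 to 0.117, limma). Set against their neighbours, mCherry_light cells were higher than GFP_light cells in all 25 genes tested, where 26.8% of all genes were higher. The light effect differed between mCherry and GFP cells for all 25 (19.5% of all genes differed upwards), of which edgeR called 8 and DESeq2 22.

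The non-coding genes of the clusters rose with the protein-coding ones. Of 19 such genes listed, 9 had values and 8 were tested. All 8 rose in Cry2_light over Cry2_dark and again in mCherry_light over mCherry_dark, where 28.1% and 27.2% of all genes rose. The median log2 change was 8.79 in monoculture, against -0.01 over all genes tested there. Most of the 8 reached the level needed for the test only through the illuminated engineered libraries. Their count and median are therefore not evidence by themselves. HOTAIRM1, an antisense RNA of the HOXA cluster, had 1221, 1162 and 1086 in Cry2_light and none in Cry2_dark. HAGLR, antisense to HOXD1, had 1772, 1883 and 1673 in Cry2_light, against 0 in each Cry2_dark library. Its count was above that of HOXD1 itself, but these counts were not divided by exon length. The strand setting could also split reads between them. HOXA11-AS, at 1.81, 0.810 and 1.77 in Cry2_light, was as low as HOXA11.

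Of the TALE cofactors, which bind DNA together with HOX proteins, 5 of 9 rose and 2 fell in both engineered contrasts. Of all genes, 28.1% rose in the monoculture contrast and 27.2% in the co-culture one, and 30.4% fell in monoculture. MEIS2 had 1700, 1769 and 1877 in Cry2_light, against 3.92, 0 and 5.95 in Cry2_dark, and MEIS1 had 157, 176 and 200.5, against 1.31, 0 and 1.49 in Cry2_dark. PKNOX2 (2.08 ± 0.20), MEIS3 (1.46 ± 0.08) and PBX2 (0.46 ± 0.05, log2, SE) rose less, while PKNOX1 fell by 0.34 on the log2 scale. PBX3 and PBX4 did not pass.
Upstream, 4 of the 5 homeobox genes tested rose in Cry2_light over Cry2_dark, where 28.1% of all genes rose. Among the monoculture libraries, CDX1, CDX2 and EVX1 reached the level needed for the test only through Cry2_light. CDX1 and CDX2, caudal factors that bind HOX regulatory DNA, had 7186 to 8071 and 7148 to 7876 in Cry2_light, against 1.49 to 4.24 and 1.49 to 8.48 in Cry2_dark. EVX1, which borders the HOXA13 end, was at least 7361-fold higher, and GBX2, a gene of the midbrain-hindbrain border, rose by 4.56 ± 0.19. CDX4 did not pass (-0.89 ± 0.59).

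**Figure D5:**
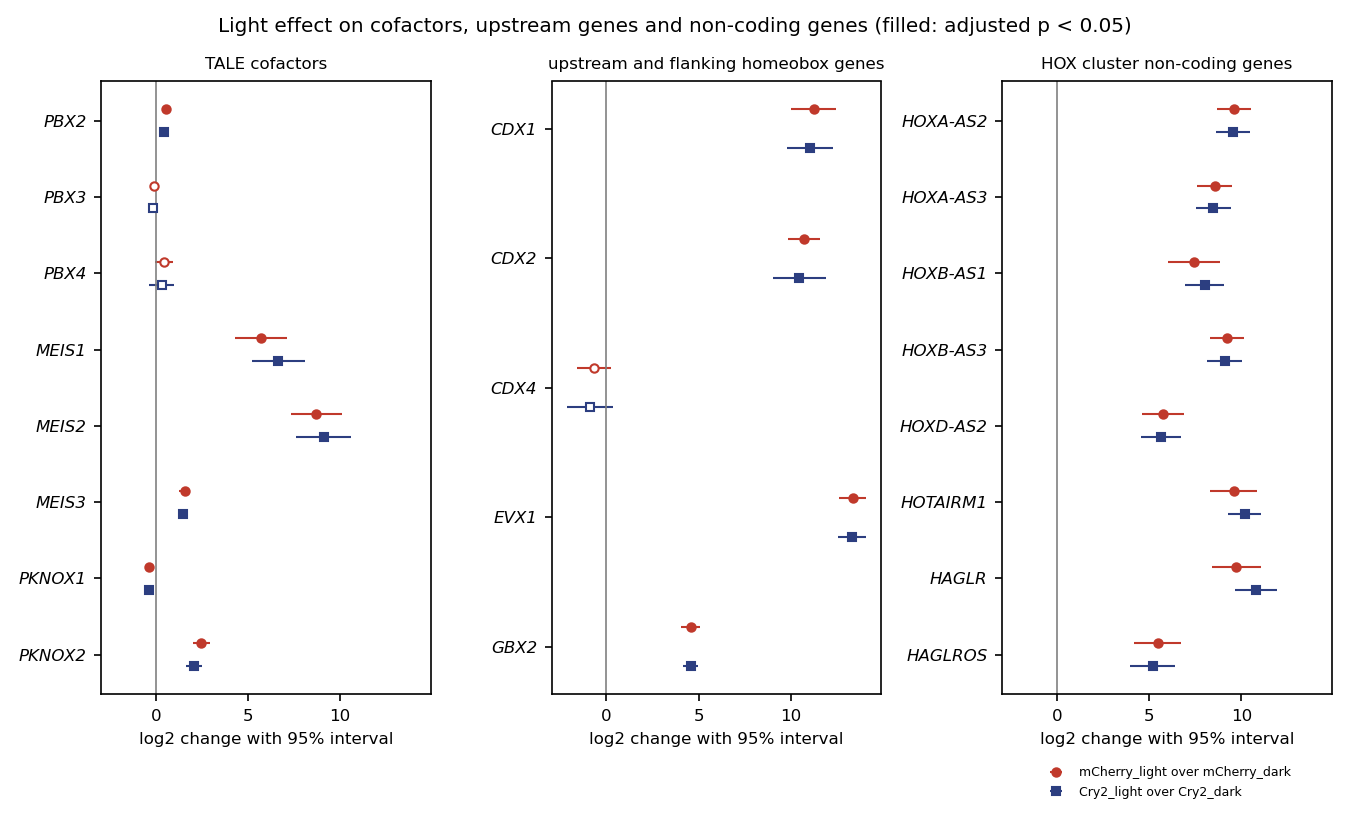
Log2 change under light with 95% interval for TALE cofactors, upstream homeobox genes and HOX cluster non-coding genes, in mCherry_light over mCherry_dark (upper of each pair) and Cry2_light over Cry2_dark (lower); filled symbols passed at an adjusted p under 0.05 (limma). All 8 non-coding genes are above 5, CDX1, CDX2 and EVX1 above 10, and the cofactors shown spread from PKNOX1 just below 0 to MEIS2 near 9.

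Of 18 flanking genes that are not HOX genes, 11 rose and 2 fell in Cry2_light over Cry2_dark, with a median log2 change of 0.37, where 28.1% of all genes rose and 30.4% fell. SKAP2, an adaptor gene beside the HOXA cluster, had 5979, 5726 and 6141 in Cry2_light, against 123, 127 and 103 in Cry2_dark, a 50.6-fold rise. PRAC1, between HOXB9 and HOXB13, had 76.0, 64.8 and 75.4 in Cry2_light and none in Cry2_dark. TTLL6, beyond the HOXB13 end, fell to 16.3, 24.3 and 20.4 in Cry2_light, against 332, 366 and 307 in Cry2_dark (-3.99 ± 0.18, adjusted p = 3.86e-11, limma), and SNX10 fell by 1.02.
Among 13 Polycomb genes, whose products hold HOX clusters silent, 5 rose and 2 fell, against the same shares of 28.1% and 30.4% over all genes. BMI1 (2.02 ± 0.33) and EZH2 (1.12 ± 0.06) rose, while CBX7 fell by 2.29 and JARID2 by 2.19 on the log2 scale. Of 7 Trithorax and H3K27 demethylase genes, KDM6B (3.06 ± 0.14) and MEN1 (0.19 ± 0.06) rose and KDM6A fell by 1.45. These 2 rises and 1 fall also stand against 28.1% and 30.4% of all genes, and neither list was tested as a set.
Among the anterior-posterior signals, 10 of 14 tested rose and 2 fell, against 28.1% and 30.4% of all genes. ALDH1A2, which makes retinoic acid, rose 1529-fold, to 10910 ± 724 in Cry2_light, and WNT3A, WNT5A, WNT8A, FGF8 and FGF17 rose by 4.81 to 10.62 on the log2 scale. NR6A1 and LIN28A fell, by 0.50 and 1.02.

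Markers of tissues in which HOX genes are known to act were mixed. The counts below are for Cry2_light over Cry2_dark, where 28.1% of all genes rose and 30.4% fell. In Cry2_light the neural genes PAX6, HES5 and NEUROG2 were at 0 in each library, and SOX1 was at 0 to 0.905. Of the 5 neural ectoderm markers only OTX2 was tested, and it rose by 0.31 ± 0.09. Of 5 hindbrain and neural genes tested 3 rose (EGR2, PAX3 and OTX2) and 2 fell, SOX10 among them. Of the 7 limb, genital and kidney genes listed, the 3 tested (OSR1, PAX2 and TBX4) rose, by 5.73 to 6.88 on the log2 scale. These reached the level needed for the test only through the illuminated engineered libraries. Among the untested, TBX5 was at 0 in each Cry2_light library, and PAX8, WT1 and PITX1 were at 2.66 to 11.3 there. Of the 3 definitive endoderm genes tested CXCR4 and GATA6 rose, while FOXA2 did not pass.
Of 3 neural crest genes tested 1 rose and 2 fell, of 3 endothelial and blood genes 1 rose and 1 fell, and of 2 fibroblast genes 1 rose (COL1A2, 3.31 ± 0.06).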

How the data were processed

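Poly(A) RNA of 24 libraries was sequenced, and the authors deposited 1 gene table of normalised read counts (signal, counts divided by a factor for each library). FastQC, cutadapt, Bowtie2, STAR, HTSeq and DESeq are named without versions, per the submitters' processing notes, which name GRCh38, while the header of the deposited sample table names hg19; no source used here gives the strand setting. That table, made by the authors, also lists total read counts, GC content and alignment in percent, and the RNA integrity score. Monoculture groups follow the sample titles, since reads of the construct genes go with those, whereas the genotype field states the reverse. Coordinates and exon lengths are of GENCODE 29 (GRCh38), matched by Ensembl ID.

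All deposited values were whole multiples of the value of 1 read (100% within 0.01), so whole reads were recovered for edgeR 4.0.16 and DESeq2 1.42.0 as alternatives. The test was limma 3.58.1 (trend, R 4.3.3) on log2(value + 1), for genes of at least 10 in at least 3 libraries, fitted on the 12 monoculture or the 12 co-culture libraries, or on all 24 for differences between cultures. P-values were adjusted by Benjamini-Hochberg over all genes tested, with a threshold of 0.05. Changes on that scale understate those of low genes. Scripts were tested on simulated data. Intervals and floors (3 reads over a group) cover counting error only. HOX genes and non-coding genes of the clusters were named by rule or list, other genes by list. Members and lists were chosen with earlier results of these data known. Alternatives were other pseudocounts, filters, scalings and tools, thinned reads and libraries left out. Some genes are counted in totals but not reported here singly.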

Additional observations from a re-analysis of the deposited data

Results flagged for a closer look

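Effects of light that differed between kinds of cell, by a test of the difference itself (limma, adjusted p under 0.05), are given here. They were found for 26 of 26 HOX genes between Cry2 and wt cells, where 22.8% of all genes differed upwards, and for 25 of 25 between mCherry and GFP cells, where 19.5% did. In edgeR 2 and 8 of them passed. Most members reached the level needed for the test only through the illuminated engineered libraries.

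Between GFP cells in co-culture and wt cells in monoculture, the light effect differed for HOXB3 by 2.19 on the log2 scale (adjusted p = 0.0355, limma). It differed for HAGLR, antisense to HOXD1, by 3.95 (adjusted p = 0.0101, limma), with 21.8, 39.6 and 26.9 in GFP_light, against 1.77, 6.29 and 0 in GFP_dark. It differed for EVX1 by 2.03 (adjusted p = 0.0157, limma), with 2.26, 4.71 and 2.69 in GFP_light, against 0 in each GFP_dark library. It differed for CDX1 by 3.21 (adjusted p = 0.045, limma), with 2.26, 8.48 and 13.5 in GFP_light, against 0.885, 0 and 2.86 in GFP_dark. CDX1 had 0, 0.952 and 0 in wt_light, against 0, 2.49 and 6.21 in wt_dark. Its difference thus also rests on 1 and 7 reads in these groups. For PBX3 the difference was 0.44 (adjusted p = 0.0421, limma), with 1853, 1874 and 1753 in GFP_light, against 1212, 1288 and 1292 in GFP_dark. None of the 5 genes overlapped between GFP_light and GFP_dark except CDX1, whose lowest light library was below its highest dark library. The 5 were picked by their test, and the share of all genes without overlap was not computed. For HAGLR, EVX1, CDX1 and PBX3 no alternative setting is given here, and HOXB3 lost its call in edgeR and DESeq2.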

How the results depend on the processing

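All 26 and 25 HOX calls of Cry2_light over Cry2_dark and mCherry_light over mCherry_dark kept their direction and passed in edgeR and without any 1 library (26 to 26 and 25 to 25), while DESeq2 called 22 and 23. Taken gene by gene over HOX calls, 908 alternatives left the call as it was, 35 lost it and 0 reversed it. This count covers the HOX genes of these 2 contrasts, HOXB1 and HOXB3 in GFP_light over GFP_dark, and HOXB3 in GFP minus wt. For named genes that are not HOX genes, no alternative setting is given here. The difference Cry2 minus wt gave 2 calls in edgeR and 25 to 26 without 1 library; mCherry minus GFP gave 8 in edgeR. GFP_light over GFP_dark gave 0 with a pseudocount of 5 or only the groups compared, 1 in edgeR, DESeq2 or without both shallow libraries (chosen after seeing the data), and 0 to 2 without 1 library. GFP minus wt gave 2 with a pseudocount of 0.5, a minimum of 20 or thinned reads, 0 with a pseudocount of 5, no filter, edgeR, DESeq2, only the groups compared or without the 2 dark libraries of doubtful quality, and 0 to 1 without 1 library. Cry2_dark over wt_dark gave 1 without those 2 libraries and 0 to 1 without 1 library. mCherry_dark over GFP_dark gave 1 with a pseudocount of 0.5, a minimum of 20 or all 24 libraries, and 0 to 1 without 1 library. The cause of these losses was not tested. Per kb of coding exon, rho was -0.939 (HOXB, Cry2_light), -0.782 (HOXA, mCherry_light) and -0.952 (HOXB, mCherry_light); without 1 library, rho was -0.83 to -0.806 (HOXA, mCherry_light) and -0.952 to -0.915 (HOXB, mCherry_light) per kb of exon; the planned RefSeq protein length was not run. On 1 strand, 1 HOX window (4.55%) held the TCF/LEF letters, against 6.67% of all windows, and 2 (9.09%) the CDX letters, against 5.61%. The MEIS letters then stood in 4 (18.2%), against 8.49%, and the PBX-HOX letters in 6 (27.3%), against 15.4%. The replicate block left 26 calls in Cry2_light over Cry2_dark; same-numbered monoculture libraries correlated at -0.061 to 0.058 over 18 pairs, so the number does not pair them. No paired analysis was possible in co-culture because the columns carry no replicate number.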
